A study of Mus musculus with 2 samples.

Results

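The 9 macrophage genes below were followed in adult mouse testis: C1qa, C1qb, C1qc, Csf1, Csf1r, Adgre1, Lyz2, Cd68 and Mrc1. They were chosen by name and were found in the gene and transcript tables by their Ensembl gene identifiers, 9 genes of 43346. The tissue was whole testis of male C57BL/6J mice aged 8 weeks, with no treatment or engineered allele in the labels. Polyadenylated RNA over 200 nucleotides was sequenced, after depletion of ribosomal RNA, as stranded pairs of 76 nucleotides in 2 libraries, called replicate 1 and replicate 2. The labels speak of littermates but give both libraries 1 donor identifier, so every SD below measures the spread between these samples, which may be technical. Replicate 1 gave 49023238 gene counts in total and replicate 2 gave 51465728.

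Macrophages live between the seminiferous tubules, beside the Leydig cells, and on the tubule wall around the spermatogonia. They depend on the cytokine CSF1, which binds the receptor tyrosine kinase CSF1R on their surface, and they engulf debris with scavenger and pattern receptors and digest it in lysosomes. Tissue macrophages are also a main source of complement C1q, the protein that recognises antibody-coated or dying cells and starts the classical complement pathway. C1q is built from equal numbers of A, B and C chains, each with a collagen-like stem and a globular head. In whole tissue RNA, fewer macrophages and less RNA per macrophage cannot be told apart, and a gene such as Csf1 is also made by other cells.

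The libraries were testis by their germ cell genes, led by the sperm chromatin gene Tnp2 at TPM 25884 in replicate 1 and 25433 in replicate 2. TPM is a transcript level scaled for transcript length and library depth, so genes can be set side by side. The libraries differed in genes of the epididymis and of peritubular and smooth muscle tissue. The 8 epididymis genes summed to TPM 658.2 in replicate 1 and 3.74 in replicate 2, with Crisp1 at 454 and 0.20 and Spink8 at 194 and 0.25. All 8 peritubular and smooth muscle genes were higher in replicate 1, with summed TPM of 339.4 against 173.9. The part of these tissues in the macrophage values was not tested.

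All 9 macrophage genes reached a TPM of 1 in each library and were called detected, as were 35.8% of all genes and 62.1% of protein-coding genes. Their median level was below that of the tissue's detected genes, though C1qb was above it in both libraries and Lyz2 in replicate 1. The median of the 9 genes was TPM 3.45 in replicate 1 and 4.39 in replicate 2 (3.92 ± 0.665, SD, n = 2), against 12.8 ± 0.265 for all detected protein-coding genes. Together they took TPM 60.5 and 57.05, or 72.0 and 71.7 in CPM, counts scaled to the library's total alone. The 3 C1q chains made up 53.1% of that summed TPM in replicate 1 and 53.0% in replicate 2. In order of mean level the genes were C1qb, Lyz2, C1qc, C1qa, Cd68, Mrc1, Csf1r, Csf1 and Adgre1. The first 4 places and the last were the same in both libraries. However, in replicate 2 the deposited bounds of C1qa (TPM 4.50) overlapped those of Mrc1 (4.39) and of Cd68 (3.81). In replicate 1 the bounds of Adgre1 (2.35) overlapped those of Csf1r (2.61) and of Mrc1 (2.76). Cd68 and Mrc1, Mrc1 and Csf1r, and Csf1r and Csf1 overlapped in TPM between libraries and could not be ordered. The TPM values of the other neighbouring genes did not overlap.

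**Figure D1:**
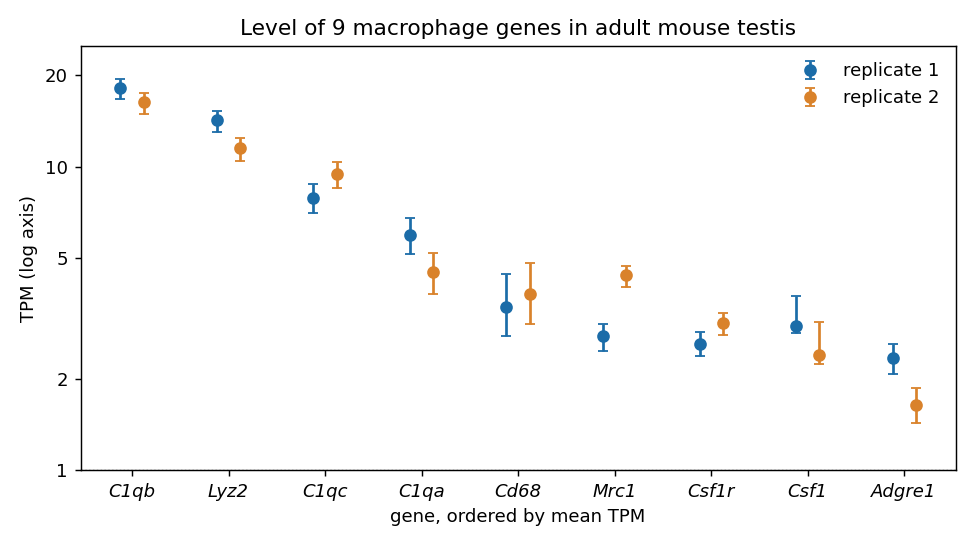
TPM of the 9 genes (log axis) in replicate 1 (blue) and replicate 2 (orange), with the interval bounds that the authors deposited, whose level is not stated. C1qb, Lyz2 and C1qc stand above the other genes in both libraries. C1qa comes next, but in replicate 2 its bounds overlap those of Mrc1 and Cd68. Mrc1 is the gene whose libraries are farthest apart.

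The C1q genes lie side by side on chromosome 4 of mm10, in the order C1qb, C1qc and C1qa and all on the minus strand. C1qb (ENSMUSG00000036905.8) spans 136880129 to 136886187, C1qc (ENSMUSG00000036896.5) spans 136889804 to 136893065, and C1qa (ENSMUSG00000036887.5) spans 136895917 to 136898803. The gaps between them are 3616 and 2851 bases, and Ephb2 and Epha8, genes for ephrin receptors, flank the cluster. Each chain gene has 3 exons in its coding transcript. Since the genes share a neighbourhood and a product, the start regions of C1qb and C1qc are shown 5′ to 3′, credited to RefSeq on GRCm38.p6, with capitals on GAGGAA or its reverse complement TTCCTC, the core that the macrophage transcription factor PU.1 binds. The C1qb stretch is chr4:136886201-136886450 and the C1qc stretch is chr4:136893066-136893164, both on the minus strand and upstream of every annotated exon of their gene.
C1qb: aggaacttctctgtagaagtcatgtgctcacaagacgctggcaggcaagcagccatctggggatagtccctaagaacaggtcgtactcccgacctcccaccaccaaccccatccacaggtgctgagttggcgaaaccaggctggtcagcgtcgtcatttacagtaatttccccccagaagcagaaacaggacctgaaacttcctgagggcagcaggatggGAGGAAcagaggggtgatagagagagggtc
C1qc: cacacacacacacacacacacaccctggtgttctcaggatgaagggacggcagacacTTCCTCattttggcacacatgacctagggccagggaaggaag
The match in C1qb begins 30 bases before its RefSeq start and reads forward. The match in C1qc begins 193 bases before its RefSeq start and reads in reverse. Bases upstream of that C1qc start run from 136892915, inside the annotated gene, whose own start is at 136893065. The C1qc match therefore lies nearer to the annotated start than to the RefSeq start. Within 250 bases before and 50 after the start, on either strand, GAGGAA occurred in 28.3% of 32817 mouse promoters. It occurred in 4 of the 6 macrophage genes with a promoter entry, namely C1qb, C1qc, Cd68 and Mrc1, and not in Csf1 or Lyz2. A match describes letters in a window, not binding.

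C1qb, the B chain gene, was the highest of the 9, with TPM 18.2 from 652 counts in replicate 1 and TPM 16.3 from 606 counts in replicate 2 (17.3 ± 1.35, SD, n = 2). This put it at the 57.1 percentile of detected protein-coding genes. C1qc, the C chain gene, had TPM 7.91 from 319 counts and TPM 9.44 from 395 counts (8.68 ± 1.08, SD, n = 2). C1qa, the A chain gene, had TPM 5.97 from 202 counts and TPM 4.50 from 158 counts (5.24 ± 1.04, SD, n = 2). The 3 chains are joined in equal number in the protein, but their RNA levels were not equal. C1qb stood above C1qa by 3.05-fold in replicate 1 (95% counting interval 2.60 to 3.59) and 3.63-fold in replicate 2 (3.04 to 4.35). C1qb stood above C1qc by 2.31-fold (2.01 to 2.64) and 1.73-fold (1.52 to 1.97). C1qc stood above C1qa by 1.33-fold (1.11 to 1.59) in replicate 1 and 2.10-fold (1.74 to 2.54) in replicate 2, so the order B, C, A held in both libraries and only the spacing moved. These intervals cover counting error alone. C1qa and C1qb were higher in replicate 1 and C1qc in replicate 2, and the summed TPM of the trio was 32.1 and 30.3 (31.2 ± 1.31, SD, n = 2).

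Csf1, the ligand (ENSMUSG00000014599.6, chromosome 3, 107741048 to 107760469, minus strand), had TPM 2.99 from 385 counts in replicate 1 and TPM 2.40 from 306 counts in replicate 2. It was at 2.70 ± 0.417 (SD, n = 2), and the authors' deposited bounds for the libraries overlapped. The ligand is made in long forms that are cut free and secreted and in a short form that stays on the cell surface, by splicing within a coding exon. In the annotation, Csf1-201 and Csf1-203 code for 552 codons and Csf1-202 for 257, the difference being an 885-base coding segment at 107748285 to 107749169. The join that tells them apart is shown as coding-strand bases from the transcripts, 5′ to 3′, with the first bases of the long-form segment in capitals.
Csf1-201: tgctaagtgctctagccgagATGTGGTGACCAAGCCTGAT
Csf1-202: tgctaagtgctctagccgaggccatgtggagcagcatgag
Forms with the segment held 61.8% of Csf1 TPM in replicate 1 and 55.7% in replicate 2 (58.7% ± 4.35, SD, n = 2). Csf1-201 led in replicate 1 with 47.0% of TPM and Csf1-202 with 36.4%, whereas in replicate 2 Csf1-202 led with 44.4% and Csf1-201 had 34.5%. The short form was level at TPM 1.09 and 1.06, and Csf1-201 moved from 1.40 to 0.83. The deposited bounds of Csf1-201, 0.914 to 1.68 and 0.370 to 1.09, overlapped between libraries, so the change of leading form was not resolved at this depth. Csf1-203 had 14.8% and 21.2%, and the other forms had under 2% in each library. By the authors' posterior means, Csf1-201 and Csf1-203 together held 53.8% and 48.2%. Csf1-207, which reaches into the segment, is not in that sum and held 3.91% and 2.7%.

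Lyz2 (ENSMUSG00000069516.7, chromosome 10, 117277331 to 117282321, minus strand) encodes the lysozyme of macrophages and neutrophils, which breaks down bacterial walls. Lyz1, the lysozyme gene of Paneth cells in the gut, lies 5475 bases away on the same strand, and the 444 coding bases of the pair are 95.05% identical, with 22 differences. Coding bases 7 to 156 are shown for both, from the annotation's transcripts and 5′ to 3′, because reads are told apart only by such differences. The 15 differing bases are in capitals.
Lyz2: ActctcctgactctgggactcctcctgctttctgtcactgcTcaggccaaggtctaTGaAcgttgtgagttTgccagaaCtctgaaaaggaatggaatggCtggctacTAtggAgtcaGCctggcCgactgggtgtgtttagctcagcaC
Lyz1: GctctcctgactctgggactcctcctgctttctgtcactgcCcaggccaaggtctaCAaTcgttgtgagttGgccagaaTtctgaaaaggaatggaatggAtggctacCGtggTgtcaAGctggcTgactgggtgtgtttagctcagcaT
Of 1241 windows of 76 bases along the Lyz2 transcript, 72 (5.80%) also occur in Lyz1. Lyz2 had TPM 14.3 from 612 estimated counts in replicate 1 and TPM 11.5 from 513 in replicate 2 (12.9 ± 1.94, SD, n = 2), at the 49.9 percentile of detected protein-coding genes. Lyz1 had TPM 0.68 from 29.05 counts and TPM 0.20 from 9 counts, so Lyz2 was 20.96-fold and 57.5-fold higher. The Lyz1 values are uncertain, since reads in the shared windows can be given to either gene. Lyz2 was lower than C1qb in both libraries, at 0.782 of its TPM (95% counting interval 0.699 to 0.874) and 0.705 (0.625 to 0.794).

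Csf1r, the receptor for CSF1 and IL34 (ENSMUSG00000024621.11, chromosome 18, 61100598 to 61132149, plus strand), had TPM 2.61 from 470 counts in replicate 1 and TPM 3.05 from 571 counts in replicate 2 (2.83 ± 0.311, SD, n = 2). The ligand was 1.15 times the receptor in replicate 1 (95% counting interval 0.999 to 1.31) and 0.787 times in replicate 2 (0.683 to 0.906). Ligand and receptor RNA were therefore near each other in level. By counting error alone, the ligand was lower in replicate 2 and the pair was not resolved in replicate 1. The deposited bounds of ligand and receptor overlapped in both libraries. In replicate 2 they were 2.23 to 3.08 for Csf1 and 2.79 to 3.30 for Csf1r. Csf1r-202 carried 95.8% and 93.4% of the gene's TPM, and Csf1r-201, with the same 977 codons, carried the rest. Csf1r-202 is longer at its 3′ end by 1015 bases, of which 873 also lie in Hmgxb3 on the opposite strand. Hmgxb3 had TPM 12.5 and 10.5, above the receptor in both libraries. The libraries were stranded, but no source used here says whether the counting used strand, so Csf1r reads in that end are uncertain.

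Adgre1 (ENSMUSG00000004730.10, chromosome 17, 57358691 to 57483527, plus strand) encodes F4/80, the adhesion receptor long used to stain mouse macrophages. It was the lowest of the 9 in both libraries, with TPM 2.35 from 284 counts in replicate 1 and TPM 1.64 from 210 counts in replicate 2 (2.00 ± 0.502, SD, n = 2). The authors' deposited bounds, 2.07 to 2.62 and 1.43 to 1.87, did not overlap. Adgre1-202 carried 61.2% of TPM in replicate 1 and 100% in replicate 2, and Adgre1-201 carried 38.8% and 0%. Both code for the same 931 codons and differ by an 87-base stretch in the noncoding 3′ end, kept in Adgre1-202 and spliced out of Adgre1-201, and by a few end bases. The deposited bounds of Adgre1-201, 0.237 to 1.62 and up to 0.686, overlapped, and by posterior means it had 39.8% and 15.2%.

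Mrc1 (ENSMUSG00000026712.3, chromosome 2, 14229392 to 14332057, plus strand) encodes CD206, the mannose receptor, which takes up sugar-bearing proteins and microbes. It had TPM 2.76 from 485 counts in replicate 1 and TPM 4.39 from 814 counts in replicate 2 (3.58 ± 1.15, SD, n = 2). Its deposited bounds, 2.48 to 3.04 and 4.02 to 4.71, were apart. Mrc1 and Adgre1 went opposite ways, so their ratio was 1.17 in replicate 1 (95% counting interval 1.01 to 1.37) and 2.68 in replicate 2 (2.30 to 3.13). Set against the receptor gene Csf1r, Mrc1 was 1.06-fold (0.930 to 1.20) and 1.44-fold (1.29 to 1.61). The full transcript Mrc1-201, with 30 exons and 1456 codons, held 75.0% and 76.8% of TPM. The remainder, 24.96% and 23.2%, was Mrc1-202, a short transcript from the 3′ end that keeps 997 intronic bases. Both transcripts were higher in replicate 2, Mrc1-201 at TPM 2.07 and 3.37 and Mrc1-202 at TPM 0.69 and 1.02.

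Cd68 (ENSMUSG00000018774.9, chromosome 11, 69664213 to 69666153, minus strand) encodes macrosialin, a sugar-coated protein of macrophage lysosomes. It had TPM 3.45 from 121 counts in replicate 1 and TPM 3.81 from 116 counts in replicate 2 (3.63 ± 0.255, SD, n = 2), the smallest counts of the 9. The coding form Cd68-201, of 326 codons, held 71.5% and 51.5% of TPM. Cd68-203, annotated as a processed transcript, lacks 434 of its coding bases and held 24.3% and 48.5%. The deposited bounds of Cd68-203, TPM 0.0220 to 1.79 and 0.892 to 2.86, overlapped. With more of the shorter form, the gene's effective length was 869 bases in replicate 1 and 723 in replicate 2, and TPM was higher in replicate 2 while the count was lower. The gene lies 782 bases from the translation factor gene Eif4a1, on the same strand, whose TPM was 147 and 182, and the part of that neighbour in the Cd68 counts was not tested.

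C1qa, C1qb and Lyz2 have 1 annotated transcript each, and Csf1, Csf1r, Adgre1, Cd68, Mrc1 and C1qc have 2 or more. Of these 6, 5 had the same leading transcript in both libraries, Csf1 being the exception, beside 89.1% of detected genes with 2 or more transcripts. C1qc-201 held 99.2% and 98.97% of its gene. The genes thus ranged from C1qc, with nearly all RNA in 1 coding form, to Csf1, with no form above 47.0%.

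**Figure D2:**
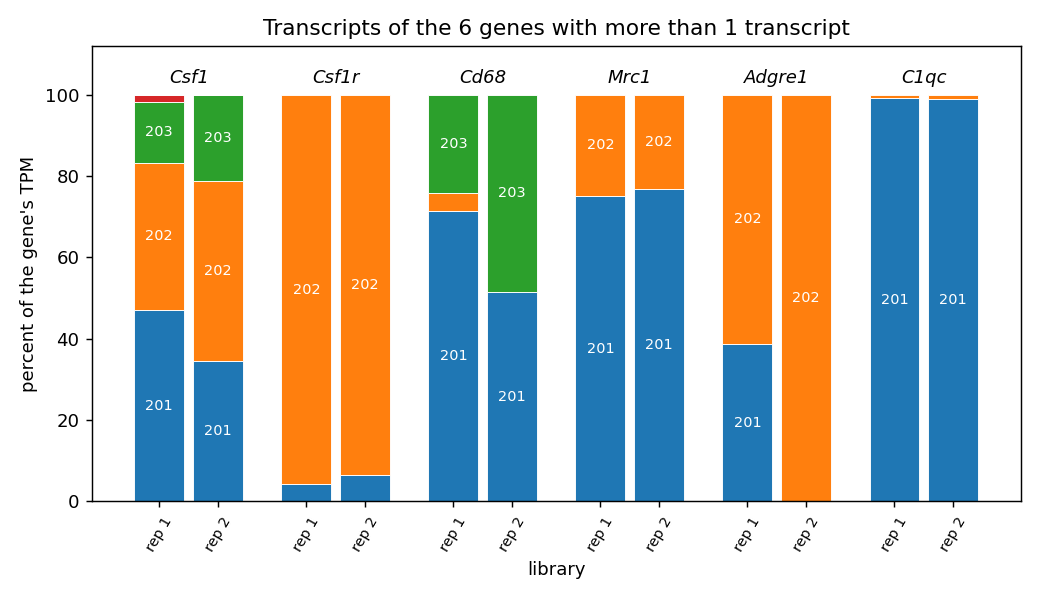
Percent of each gene's TPM (vertical axis) in each annotated transcript, for the 6 genes with more than 1 transcript, replicate 1 at left and replicate 2 at right in each pair, with transcript numbers in the bars. Csf1r, C1qc and Mrc1 keep their pattern between libraries, while Csf1-201 goes from 47.0% to 34.5%, Cd68-203 from 24.3% to 48.5% and Adgre1-202 from 61.2% to 100%.

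How far the libraries differed was measured by the log2 ratio of scaled counts, replicate 2 over replicate 1, with a 95% counting interval. With 1 library on each side there is no replicate error for this ratio and no test was made. None of the 9 genes passed 2-fold in either direction, a size passed upward by 0.67% and downward by 0.991% of detected genes. Mrc1 had the largest value, 0.67 (0.51 to 0.84), higher in replicate 2, and 5.03% of detected genes had a larger one in size. C1qc at 0.23 (0.02 to 0.45) and Csf1r at 0.20 (0.03 to 0.38) were also higher in replicate 2, so intervals of 3 genes lay above 0, as for 30.0% of detected genes. Adgre1 at -0.51 (-0.78 to -0.25), C1qa at -0.43 (-0.74 to -0.12), Csf1 at -0.41 (-0.63 to -0.19), Lyz2 at -0.33 (-0.50 to -0.16) and C1qb at -0.18 (-0.34 to -0.02) were higher in replicate 1. For these 5 genes the interval lay below 0, as for 27.6% of detected genes. Cd68 at -0.14 (-0.52 to 0.24) included 0. Deposited TPM bounds were apart for 3 of 9 genes, Adgre1, Lyz2 and Mrc1, beside 36.3% of detected genes.

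The median size of the log2 ratio was 0.33 over the 9 genes, 0.17 over all detected genes and 0.21 over the 6946 detected genes with 100 to 1000 counts. In that count range the 5th and 95th percentiles were -0.57 and 0.55, and Mrc1 was the only one of the 9 outside them. The 9 genes lay on both sides of 0: the median log2 ratio was -0.18, with 6 genes higher in replicate 1 and 3 in replicate 2. Sides are by scaled counts, and Cd68, whose interval included 0, changed side by TPM. Over all detected genes the median log2 ratio was 0.01. Their share on each side was not counted, so the split of the 9 genes is a description alone. Members of the C1q trio lay on both sides of 0, as did ligand and receptor. In replicate 1, 6 of the 9 genes were higher. So were all 8 peritubular and smooth muscle genes and 6 of 8 epididymis genes. Of these epididymis genes, 4 were past 2-fold with at least 10 counts in 1 library, and Lcn5 and Lcn8 had at most 2 counts. A link between these differences was not tested. Rnase10, the only epididymis gene detected in both libraries, was higher in replicate 2, at TPM 2.42 and 3.23.

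**Figure D3:**
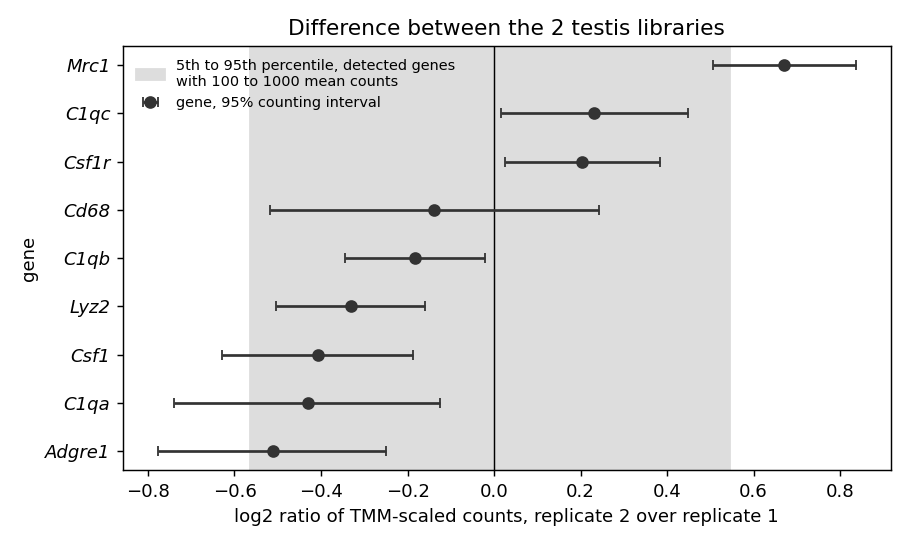
Log2 ratio of scaled counts, replicate 2 over replicate 1, for the 9 genes, with 95% counting intervals as bars. The grey band spans the 5th to 95th percentile (-0.57 to 0.55) of detected genes with 100 to 1000 counts, and Mrc1 at 0.67 is the only point outside it.

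Other genes of macrophages gave a mixed picture. Of 26 markers, 15 were detected. Over all 26, with the 11 not detected included, the median TPM was 1.76 in replicate 1 and 1.64 in replicate 2 (1.70 ± 0.0849, SD, n = 2). This was below the median of the 9 genes, all of which were detected. The highest was Aif1, the gene of the actin-binding protein IBA1, at TPM 387 and 385, which was 21.2 and 23.6 times C1qb. A coding form, Aif1-206, held 44.8% and 50.3% of it and Aif1-207, annotated as retaining an intron, held 48.5% and 42.06%. Both begin at 35176001 on the minus strand of chromosome 17. Aif1-203, like Aif1-206 of 147 codons, begins at 35172819 and had TPM 9.19 and 15.7, while Aif1-201 was at TPM 0 and 0.22. The part of macrophages in the Aif1 level was not tested. Fcgr3, an activating receptor for antibody, followed at TPM 46.4 and 26.8, and the class II antigen presentation gene H2-Ab1 at 31.6 and 26.6. Against Mrc1, H2-Ab1 was 11.4 and 6.05 times as high. The lowest by mean was Timd4, a receptor for dying cells, at TPM 0.06 and 0.22, though Lyve1, Fcgr1 and Cd163 were below it in replicate 2. Past 2-fold were Timd4, from 5 and 18 counts, and, higher in replicate 1, the integrin gene Itgam (TPM 0.58 and 0.22) and the hyaluronan receptor gene Lyve1 (TPM 0.26 and 0.10). Of the 26 genes, 19 were higher in replicate 1 and 7 in replicate 2 by scaled counts, and Laptm5 changed side by TPM (3.69 and 4.83). Their median log2 ratio was -0.30, beside 0.01 over all detected genes.

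The cytokine axis and the transcription factors of macrophages had 6 of 12 genes detected. Il34, the other ligand of CSF1R, had TPM 1.56 and 1.75, and Csf1 stood above it by 1.92-fold and 1.37-fold. Csf2ra, the alpha chain of the GM-CSF receptor, was the highest at TPM 14.7 and 13.2, while its ligand gene Csf2 had no count, which allows up to 0.0612 and 0.0583 CPM. The transcription factor genes ranged in level. Irf8 had TPM 2.99 and 2.52, Spi1, which encodes PU.1, had 2.53 and 2.19, and Cebpa had 2.29 and 1.36. Maf at 0.92 and 0.94 and Runx1 at 0.35 and 0.53 were not detected.

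**Figure D4:**
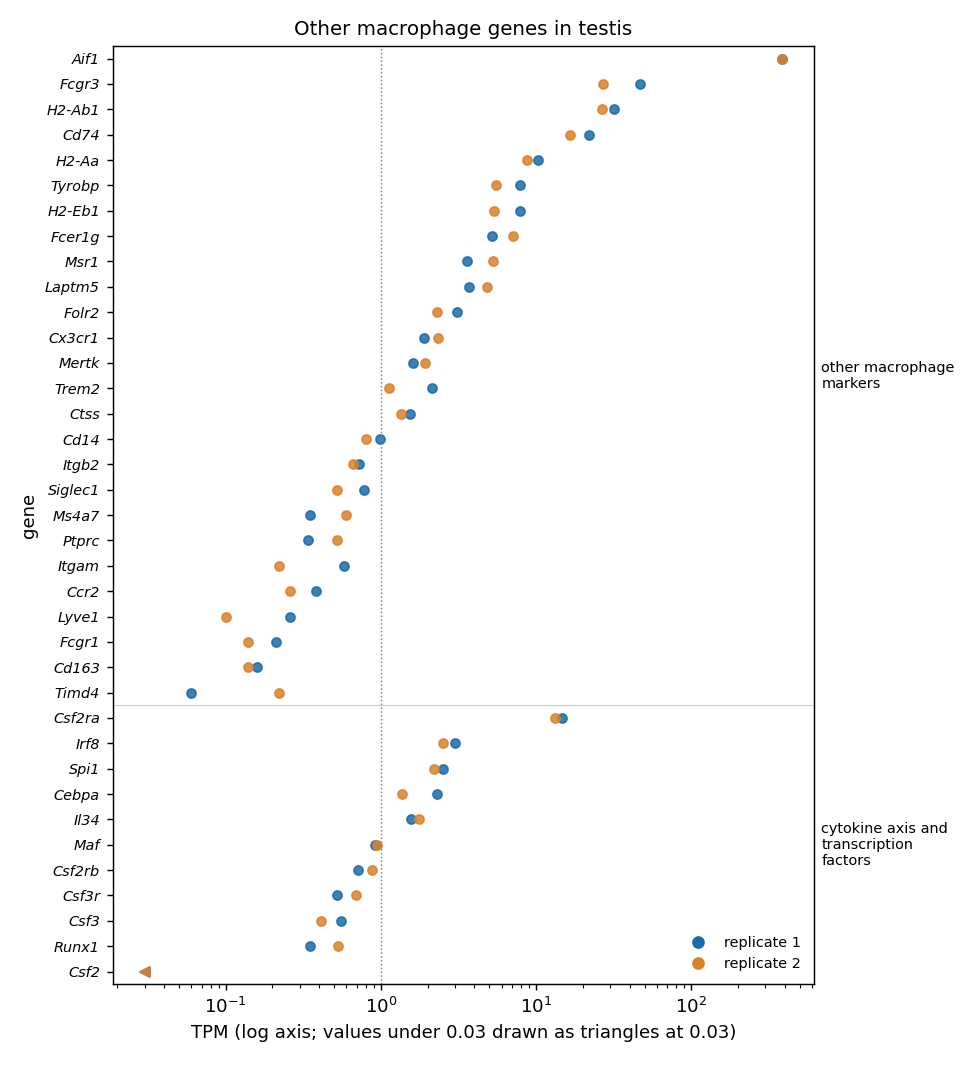
TPM (log axis) of 26 other macrophage markers and of genes of the cytokine axis and transcription factors, replicate 1 in blue and replicate 2 in orange, with the detection threshold of 1 as a dotted line. Aif1 stands alone near 387, and 11 of the 26 markers fall below the threshold in at least 1 library.

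The partners of C1q in the complement system were present unevenly. The proteases that C1q activates were led by C1s1 at TPM 8.33 and 9.13 and C1ra at 5.32 and 4.03, near the level of C1qc and C1qa, while their close copies C1s2 and C1rb, which can share reads with them, were under 1. Serping1, the gene of the C1 inhibitor, was above all of them at TPM 47.4 and 35.08. Of 17 genes of the later and alternative steps 7 were detected. The highest by mean were C8g at TPM 62.6 and 50.5, C8b at 20.8 and 21.95 and Cfd at 22.1 and 11.3, and C9 had no count. C4b, the next substrate of the classical pathway, had TPM 15.6 and 13.01. All 6 membrane regulators that shield cells from complement were detected, with a median TPM of 13.1 and 20.98, and all 6 were higher in replicate 2 by scaled counts, though Cr1l was lower there by TPM (7.95 and 7.07). Their median log2 ratio was 0.38, beside 0.01 over all detected genes. They were led by Cd55b at TPM 162 and 191 and Cd55 at 24.2 and 32.4. Of 7 receptors for complement proteins only Lrp1 was detected, at TPM 23.0 and 18.1. Cr2 missed the threshold narrowly, at TPM 0.99 from 57 counts and TPM 1.39 from 56 counts.

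Some relatives of the 9 genes stood far above the macrophage gene itself and others below it. In the lysozyme family, 5 of 6 genes were detected, all but Lyz1. Spaca3, a sperm acrosome member, had TPM 439 and 424, which was 30.8 and 36.9 times Lyz2, and Lyzl6 and Lyzl1 had TPM 205 and 256 and TPM 105 and 142. Among lysosomal membrane genes related to Cd68, 3 of 4 were detected and Lamp1 had TPM 512 and 542, or 148 and 142 times Cd68. In the other direction, the mannose receptor relatives were lower than Mrc1, with only Mrc2 detected of 3, at TPM 1.36 and 1.03. Adgre5, a relative of Adgre1 found on many white cells, stood above Adgre1 in both libraries, at TPM 11.6 and 5.29. It was past 2-fold higher in replicate 1, with a log2 ratio of -1.071 (-1.225 to -0.919). Adgre4 had 1 count in all. Among kinases of the Csf1r class, Kit, a receptor of spermatogonia and Leydig cells, had TPM 6.44 and 9.77, Pdgfra 2.96 and 2.86, Pdgfrb 2.08 and 1.35, and Flt3 was below 1 in both libraries.

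**Figure D5:**
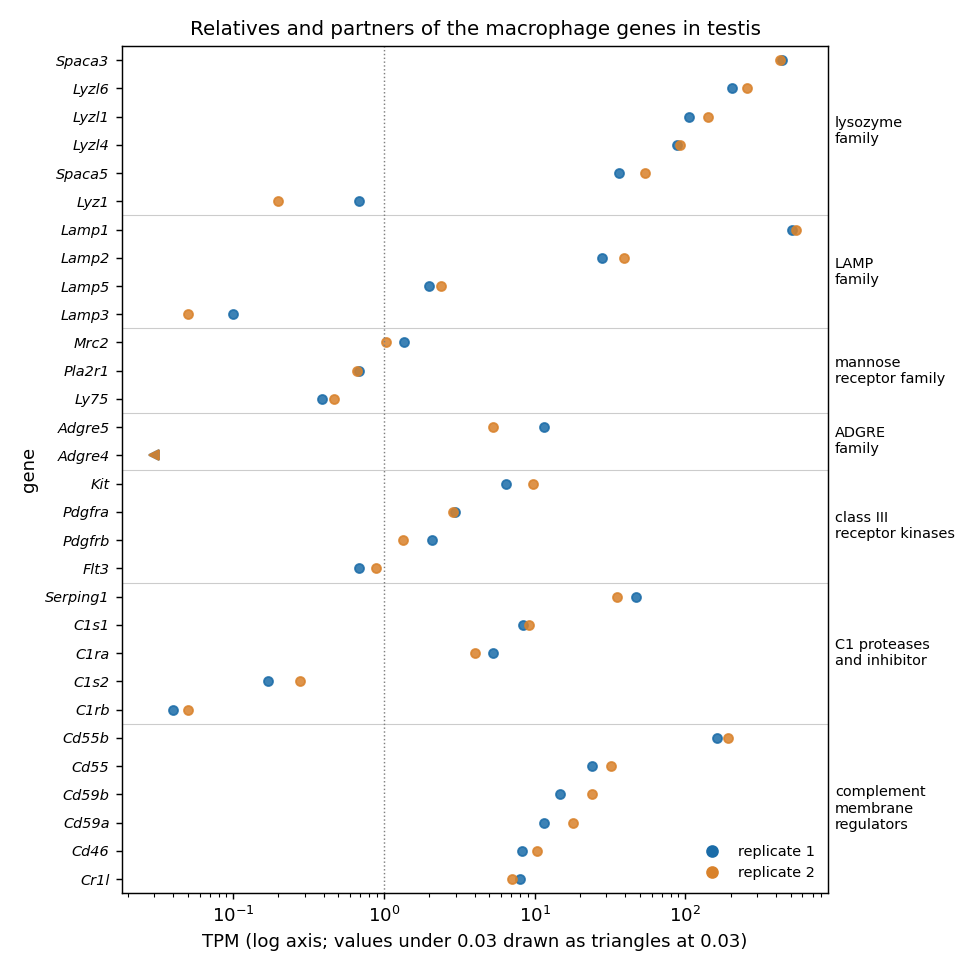
TPM (log axis) of gene families and partners of the macrophage genes, replicate 1 in blue and replicate 2 in orange, grouped by family, with the detection threshold of 1 as a dotted line. Spaca3 and Lamp1 lie above all others, and Adgre4 is drawn at the edge because its TPM is under 0.03.

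Few genes of other white cells were detected. T cell genes had 1 of 6 detected, Lck at TPM 1.58 and 2.17. Neutrophils also make the lysozyme of Lyz2, and their genes had 1 of 6 detected, Mpo at TPM 1.70 from 57 counts and TPM 4.74 from 176 counts. The other 5 genes had at most 6 counts in either library, with S100a9 at 0 in both. The part of neutrophils in the Lyz2 level was not tested. None of the 4 mast cell genes was detected, and summed TPM was 0.76 and 0.45. All 6 Leydig and all 6 Sertoli genes were detected. The Sertoli genes were all higher in replicate 2, with a median log2 ratio of 0.30, beside 0.01 over all detected genes. Endothelial and red blood cell genes had 5 of 6 detected each, with median log2 ratios of -0.20 and -0.07.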

How the data were processed

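Polyadenylated testis RNA in 2 libraries was measured on the mm10 assembly with annotation M4, as the deposited readme states. Expected counts, per the file headers, are estimates that the authors made for genes and transcripts without normalisation. The authors also deposited TPM and FPKM, posterior means of counts and TPM, interval bounds on TPM of unstated level, and each transcript's percent of its gene. Aligner and counter: not given in the sources used here. Junctions and contigs on mm9 were not used here.

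Symbols, positions and exons came from GENCODE M21 by unversioned identifier, matching 42462 of 43346 genes. Expected counts were rounded to whole numbers and scaled by TMM in edgeR 4.0.16 (R 4.3.3) over 19534 genes with 10 counts or more in each library, with DESeq2 1.42.0 size factors as an alternative. Counting intervals are exact binomial, at 95%, and cover counting error only. What edgeR calls the biological coefficient of variation was 0.183 over the 2 libraries. It takes in every difference between them, which may be technical. A count of 0 allows up to 3 counts.

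The 9 genes and the 22 other lists were chosen with earlier results of these data known. The naming rule gives all 9 genes, and of each other list the 3 highest, the lowest and those past 2-fold with at least 10 counts in 1 library; lists of cell types other than macrophages are given mostly by counts. Some results that the rule covers are not reported here. With 1 group there was no test between groups. Sequences came from the annotation's transcripts and from RefSeq (GRCm38.p6), where C1qa, Csf1r and Adgre1 have no promoter entry in the table used.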

Additional observations from a re-analysis of the deposited data

How the results depend on the processing

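All 9 genes were detected at a TPM of 0.5, by posterior mean TPM, by FPKM and in either library alone, and 8 of 8 without Csf1, but 3 at a TPM of 5 (C1qb, Lyz2 and C1qc). The median TPM was 3.98 by posterior means and 3.45 to 4.39 over single libraries, and 4.65 when nuclear protein-coding genes alone made up the total, a rescaling that raises all of them. None of the 9 genes passed 2-fold under any scaling, filter or pseudocount tried, and 1, Mrc1, passed 1.5-fold. The median log2 ratio was -0.19 to -0.15 over all settings, and scaling moved the median of all detected genes only between 0.007 and 0.02. The 46 log2 ratios under alternatives have no counting interval of their own, so whether each interval would still exclude 0 was not tested. Every gene whose main interval excluded 0 kept its sign in all of them. Cd68, whose main interval included 0, changed sign in 2 settings. It was -0.14 by counts and 0.11 or 0.14 on the log2(TPM + 1) and log2(TPM + 0.1) scales, where effective length enters. With Lyz1 added, an alternative chosen after seeing the data like the one without Csf1, Lyz2 was at -0.37. The leading transcript was the same for 5 of 6 genes by posterior means as well, and its mean share went from 40.7% to 33.8% for Csf1, 80.6% to 72.5% for Adgre1, 61.5% to 57.7% for Cd68, 94.6% to 91.7% for Csf1r and 99.1% to 98.7% for C1qc. The last pair moved by more than their SD between libraries. No paired analysis was possible because the labels give 1 group. Log2 ratios between libraries cannot be had without either library. Depth limits Cd68 most, with 121 and 116 counts and the widest counting interval of the 9 genes (-0.52 to 0.24).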
